A study of Ovis aries with 12 samples.

Results

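Small structured RNAs are cut in cells into short pieces that have the size of a miRNA. Transfer RNAs (tRNAs), which carry amino acids to the ribosome, give fragments from their 5′ and 3′ ends and from the trailers of their precursors, and the U2 small nuclear RNA (snRNA), a core part of the spliceosome, gives fragments as well. Several such pieces were once registered as miRNAs, so a count against a miRNA reference holds them beside true miRNAs. Of 470 entries in the count table, 6 with listed names of this kind are described here, and the table holds other such entries. The 6 were found by name alone: cgr-miR-1260, bta-miR-2478, hsa-miR-7977, hsa-miR-4454, mmu-miR-1983 and bta-miR-1246. The last of them shares its entry with the human and chimpanzee miR-1246 names.

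The prefix of each name is the species in which the sequence was registered, so the prefixes cgr (Chinese hamster), bta (cow), hsa (human) and mmu (mouse) do not mark the source of the reads, which were all from sheep cells. In human cells miR-1260 matches the 3′ end of a leucine tRNA and miR-4454 the 3′ end of a histidine tRNA. The mouse name miR-1983 belongs to a piece of an isoleucine tRNA precursor. In human cells a large part of the reads assigned to miR-1246 has been traced to U2 snRNA. The sheep gene table (assembly ARS-UI_Ramb_v3.0) lists 45 leucine, 38 histidine and 23 isoleucine tRNA genes among 2451 tRNA genes, so an entry of this kind need not stand for 1 locus. No sequence is shown here, and the overlap with sheep tRNA or U2 was not tested.

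The cells were cultured endothelial cells of the lamb main pulmonary artery, freed with collagenase, selected on CD31 beads and grown with serum to passages 2 to 5. The PPHN group (persistent pulmonary hypertension of the newborn) came from lambs whose ductus arteriosus was tied off in utero at about 125 days of gestation for 5 to 7 days, and the control group from lambs with sham surgery. There were 6 control libraries, numbered 1 to 6, and 6 PPHN libraries, numbered 7 to 12. Whether every library stems from a different lamb is not stated, so the p-values reflect spread between libraries, part of which may be technical.

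Library totals ran from 2250077 counts (PPHN 11) to 17740932 (PPHN 7). Levels are counts scaled to an equal total per library (CPM) after TMM scaling, which corrects each library for its overall composition. The summed level of the 6 entries of miR-126, the defining endothelial miRNA, was 10956 to 102467 CPM in 9 libraries. It was far lower in control 2 (172 CPM), PPHN 8 (203 CPM) and PPHN 11 (187 CPM), which goes against the cell type in their labels. The summed smooth muscle markers (4 entries of miR-143 and miR-145) ran from 2158 to 301464 CPM. In bulk RNA, fewer cells of a type and less RNA per cell cannot be told apart.

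All 6 entries were detected in every library, with 21 to 70566 counts per library. Together the 6 entries held 0.274% to 0.791% of the counts of a library. Summed, they reached 5533 ± 992 CPM over the control libraries, and the PPHN libraries averaged 4902 ± 1864 CPM (SD, n = 6 each). One entry, cgr-miR-1260, made up most of it, with a median of 73.3% of the summed level over the libraries and a minimum of 46.9% in PPHN 9.

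The order of the entries was only partly fixed. In each of the 12 libraries cgr-miR-1260 stood first and bta-miR-2478 second. Behind them mmu-miR-1983 ranged from rank 3 to rank 5 among the 6, and hsa-miR-4454 and bta-miR-1246 each from rank 3 to rank 6. By mean level cgr-miR-1260 was the 31st most abundant of 468 tested entries and hsa-miR-7977 the 193rd.

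**Figure D1:**
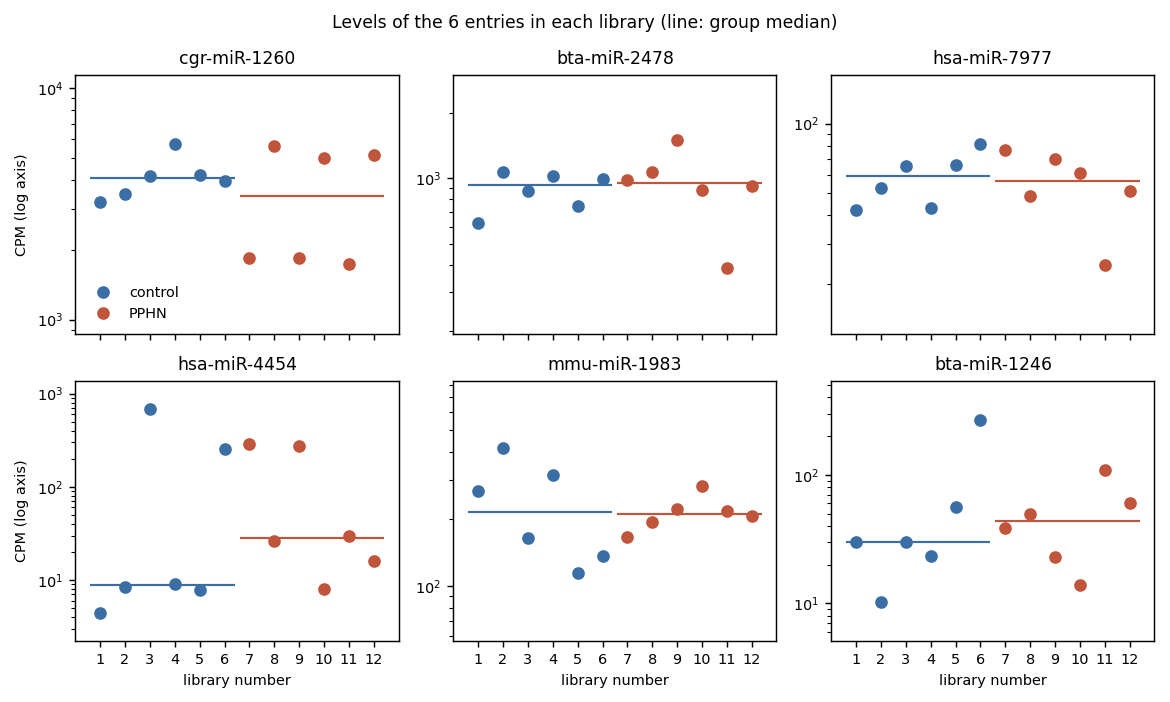
Level of each of the 6 entries (CPM, log axis) in the 6 control (1 to 6) and 6 PPHN (7 to 12) libraries. Points are libraries and lines are group medians. The level of hsa-miR-4454 stands at 253 to 683 CPM in libraries 3, 6, 7 and 9 and at 4.47 to 29.9 CPM in the other 8.

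The leucine tRNA-type entry cgr-miR-1260 was at 3226 CPM in the lowest control library, 4066 CPM in the median and 5706 CPM in the highest. In PPHN it was at 1732, 3406 and 5628 CPM. The median hides a gap in the PPHN group: PPHN 7, PPHN 9 and PPHN 11 lay at 1838, 1839 and 1732 CPM, below every control, while PPHN 8, PPHN 10 and PPHN 12 lay at 5628, 4973 and 5109 CPM, inside the control range. The fitted change was a log2 fold change of -0.23 (SE 0.34, edgeR quasi-likelihood test, adjusted p = 0.906), and a 95% interval from the SE of -0.90 to 0.44.

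The second entry, bta-miR-2478, registered in cow, was at 626, 930.4 and 1066 CPM in the lowest, median and highest control library. In PPHN the same values were 386, 953 and 1496 CPM. The groups overlapped almost wholly, and both extremes were PPHN libraries, PPHN 11 at the low end and PPHN 9 at the high end. The log2 fold change was 0.11 (SE 0.27; edgeR adjusted p = 0.920; 95% interval -0.43 to 0.64).

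The human-named hsa-miR-7977 was at 42.2, 59.0 and 81.8 CPM in the lowest, median and highest control library and at 24.3, 56.1 and 76.9 CPM in PPHN. PPHN 11 was again the lowest library, with 60 counts. The log2 fold change was -0.08 (SE 0.30; edgeR adjusted p = 0.938; 95% interval -0.66 to 0.50).

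The isoleucine tRNA-type entry mmu-miR-1983 spread more in control than in PPHN. Its control values were 114 CPM at the lowest (control 5), 215 CPM at the median and 415 CPM at the highest (control 2). The PPHN values were 166, 211 and 282 CPM and all lay inside the control range. Its log2 fold change was -0.13 (SE 0.31; edgeR adjusted p = 0.920; 95% interval -0.75 to 0.48).

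The U2-type entry bta-miR-1246 had a control median of 30.1 CPM, a low of 10.3 CPM in control 2 and a high of 268 CPM in control 6. The PPHN libraries ran from 13.9 CPM (PPHN 10) through a median of 43.9 CPM to 108 CPM (PPHN 11). Control 6 alone thus carried much of the control mean of 69.8 ± 98.5 CPM, beside a PPHN mean of 48.9 ± 33.7 CPM (SD, n = 6). The log2 fold change of -0.51 (SE 0.77; edgeR adjusted p = 0.906; 95% interval -2.01 to 0.99) became 0.70 without control 6.

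The histidine tRNA-type entry hsa-miR-4454 had the widest range of the 6. Its high libraries were control 3 at 683 CPM, PPHN 7 at 291 CPM, PPHN 9 at 272 CPM and control 6 at 253 CPM. In the other 8 libraries it stood between 4.47 CPM (control 1) and 29.9 CPM (PPHN 11), so each group held 2 high and 4 low libraries. The lowest value rested on 21 of 4697471 counts, or 4.47 CPM before scaling (exact Clopper-Pearson 95% interval 2.77 to 6.83, counting error only), and the highest on 4264 counts. The log2 fold change was -0.58 (SE 1.37; edgeR adjusted p = 0.920; 95% interval -3.26 to 2.09), and it was 0.95 without control 3 and 1.02 with limma-voom.

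Thus 0 of the 6 entries passed an adjusted p of 0.05 in the edgeR test of PPHN against control, where 0% of all 468 tested entries did and DESeq2 called 12 of all entries. At an unadjusted p under 0.05 the count was also 0 of 6, beside 10.5% of all tested entries; with DESeq2 and with limma-voom 0 of 6 passed the adjusted threshold. The groups were separate for 0 of the 6, beside 1.28% of all tested entries. The fitted change was negative for 5 of the 6 and positive for bta-miR-2478, but its sign turned for bta-miR-2478 without PPHN 9, for mmu-miR-1983 without control 2 and for hsa-miR-7977 without control 6 or PPHN 11. The 6 had a median log2 fold change of -0.18 beside -0.08 over all tested entries. In the authors' deposited table the q-values of the 6 lay between 0.901 and 0.937 for edgeR. Without control 2, PPHN 8 and PPHN 11, the libraries low in miR-126, the log2 fold changes were -1.27 for bta-miR-1246, -0.35 for hsa-miR-4454, -0.34 for cgr-miR-1260, 0.08 for mmu-miR-1983, 0.10 for hsa-miR-7977 and 0.31 for bta-miR-2478, and again 0 of the 6 passed. The intervals of cgr-miR-1260, bta-miR-2478, hsa-miR-7977 and mmu-miR-1983 all lay within 1 log2 unit of 0, while those of hsa-miR-4454 and bta-miR-1246 reached beyond it.

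**Figure D2:**
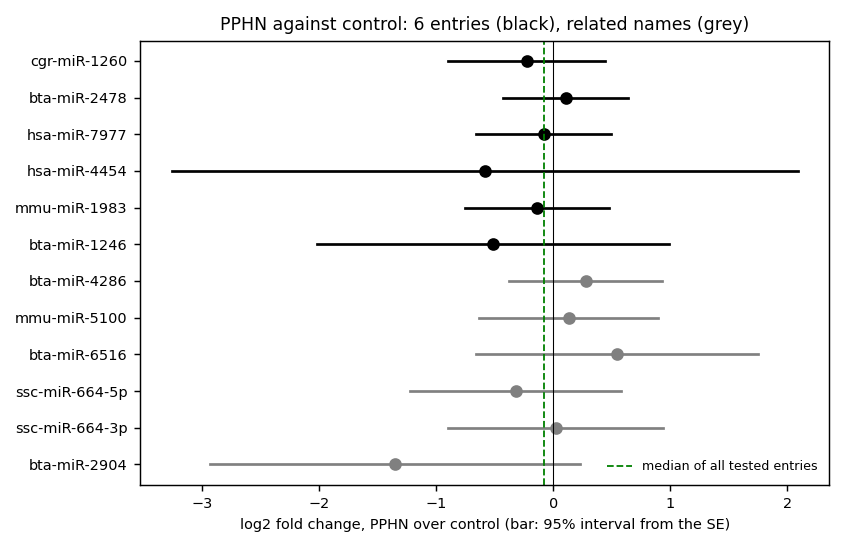
Log2 fold change of PPHN over control from edgeR for the 6 entries (black) and 6 entries with related names (grey), with 95% intervals from the SE. The zero line lies inside every interval, and the dashed line marks the median of all tested entries at -0.08.

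The entries differed in how steady they were from library to library. The biological coefficient of variation (the spread beyond counting error in the edgeR fit) was 0.40 for bta-miR-2478, 0.43 for hsa-miR-7977, 0.45 for mmu-miR-1983 and 0.46 for cgr-miR-1260, all below the median of 0.49 over the 324 entries with a mean of at least 10 CPM. It was 0.89 for bta-miR-1246 and 1.44 for hsa-miR-4454, and only 5 of the 324 entries had a higher value than hsa-miR-4454. The highest library exceeded the lowest by 3.29-fold for cgr-miR-1260 and by 153-fold for hsa-miR-4454.

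The 6 entries did not vary as 1 set. Correlations of log2 CPM over the 12 libraries were computed for 5 entries, leaving out hsa-miR-4454 because its libraries fall into separate sets. Of 10 pairs, 5 had a positive Pearson r, the median r was 0.02, and the median over all 52326 pairs of entries with a mean of at least 10 CPM was 0.000878. Each of the 5 was set against the other 4, against all other tested entries and against the library total, 2325 relations in all. In 0% of them, and so in 0 of the 10 pairs, the adjusted permutation p was under 0.05. At an unadjusted p under 0.05 there were 2 of the 10 pairs, beside 13% of all relations. CPM are relative levels, so a very abundant entry can lower the others where TMM scaling does not fully correct for it. The 6 entries themselves held at most 0.791% of the counts of a library.

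The first of these pairs was bta-miR-2478 with hsa-miR-7977 (Pearson r = 0.71, permutation p = 0.0192, adjusted p = 0.337; Spearman rho = 0.34, permutation p = 0.287; n = 12). The relation rested on PPHN 11, the library with the lowest total, in which both were lowest. Without the 2 libraries farthest from the median, r was 0.16, without PPHN 11 alone it was 0.29, and without the 3 libraries low in miR-126 it was 0.41. Within PPHN r was 0.88 (exact permutation p = 0.0569) and within control 0.22 (exact permutation p = 0.651). The ratio of bta-miR-2478 to hsa-miR-7977 stayed between 11.3 and 23.8 over the 12 libraries, a 2.11-fold range, the narrowest of all 15 ratios between the entries.

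The second was bta-miR-1246 with mmu-miR-1983, which ran in opposite directions (Pearson r = -0.70, permutation p = 0.0107, adjusted p = 0.325; Spearman rho = -0.74, permutation p = 0.00764; n = 12). Control 2 had the lowest bta-miR-1246 and the highest mmu-miR-1983. Without the 2 libraries farthest from the median r was -0.48 (permutation p = 0.16). Within control r was -0.77 (exact permutation p = 0.0431) and within PPHN -0.51 (exact permutation p = 0.286). With CPM that were not scaled by TMM the pooled r was -0.53 (permutation p = 0.0751).

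**Figure D3:**
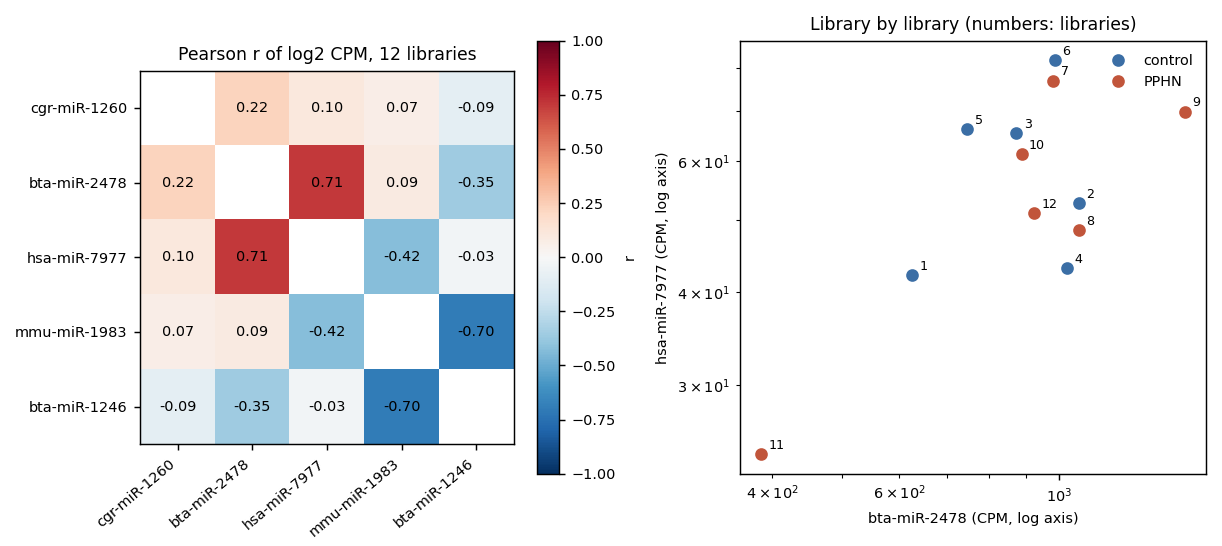
Left, Pearson r of log2 CPM over 12 libraries between 5 of the 6 entries. Right, bta-miR-2478 against hsa-miR-7977 (CPM, log axes), 1 point per library with its number: PPHN 11 stands at 386 and 24.3 CPM, apart from the other 11.

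The 2 most abundant entries kept no fixed proportion. The ratio of cgr-miR-1260 to bta-miR-2478 was 1.87 in PPHN 7 and 1.23 in PPHN 9, against 3.26 to 5.62 in the other 10 libraries. In PPHN 11, where cgr-miR-1260 was as low as in those libraries, bta-miR-2478 was low too and the ratio was 4.48. Control libraries had a mean ratio of 4.73 ± 0.932, and PPHN libraries one of 4.00 ± 1.95 (SD, n = 6). PPHN 7 and PPHN 9 were 2 of the 4 libraries with much hsa-miR-4454. In the others, control 3 and control 6, the ratio was 4.79 and 4.00. Some further entries were scarce or absent in PPHN 7 and PPHN 9. The 3 given here were picked after the values were seen, for being scarce there, and such entries were not counted over the table. These libraries held 2 and 0 counts of prd-miR-5960-5p, 26 and 0 of dre-miR-196c, and 62 and 0 of mml-miR-7194-3p. Every other library held more counts of each, although PPHN 7 had the highest total. Among them was PPHN 11, the library with the lowest cgr-miR-1260. It held 445, 45 and 84 counts of these entries, at the lowest total. Not all entries were low in PPHN 7 and PPHN 9, as oar-miR-27a shows. Whether the low cgr-miR-1260 belongs with the scarce entries was not tested.

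The 4 libraries with much hsa-miR-4454 also held much of the smooth muscle markers, which summed to 104490 to 301464 CPM there and to 2158 to 179875 CPM in the other 8. The reverse did not hold: control 1 and PPHN 12 had 179774 and 170870 CPM of oar-miR-143, which marks smooth muscle, with hsa-miR-4454 at 4.47 and 15.9 CPM. None of the 4 smooth muscle entries was higher in each of the 4 libraries than in all the others. Summed fibroblast markers (8 entries) were 4532 to 19404 CPM in the 4 libraries and 135 to 9619 CPM in the other 8, and summed miR-126 entries 25571 to 60818 CPM and 172 to 102467 CPM. The part of these cell types in the level of hsa-miR-4454 was not tested.

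**Figure D4:**
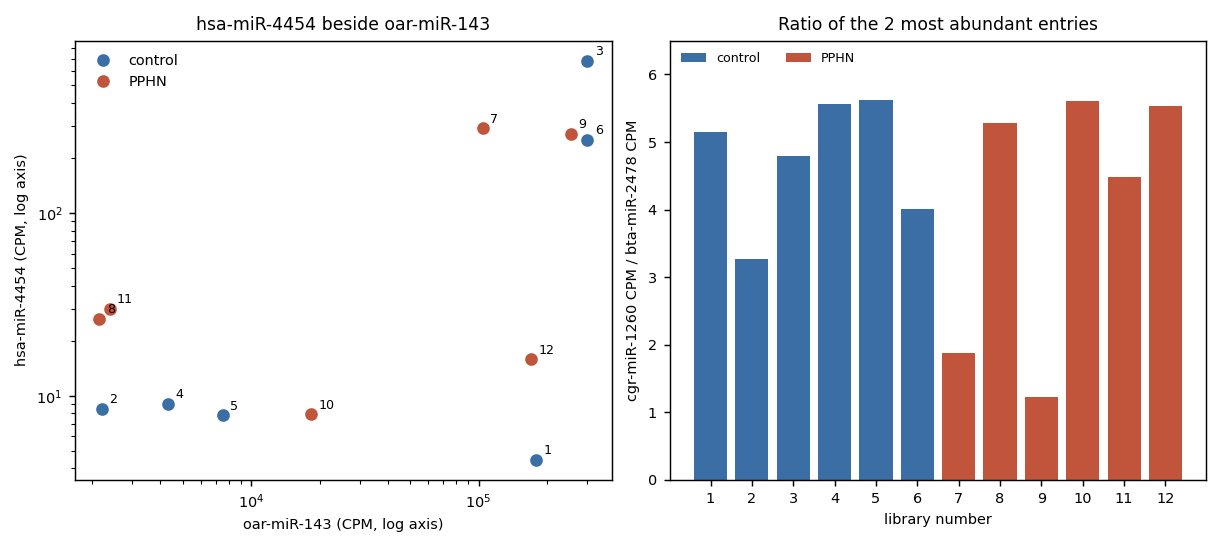
Left, hsa-miR-4454 against oar-miR-143 (CPM, log axes), 1 point per library with its number: libraries 3, 6, 7 and 9 are high in both, and libraries 1 and 12 are high in oar-miR-143 only. Right, the ratio of cgr-miR-1260 to bta-miR-2478 by library, lowest at 1.23 in library 9.

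Within the 8 libraries with little hsa-miR-4454, its correlation with the other 5 entries ran from r = -0.51 with hsa-miR-7977 (exact permutation p = 0.196) to 0.63 with bta-miR-1246 (exact permutation p = 0.0957; n = 8). The same 4 libraries did not stand apart in cgr-miR-1260 (1838 to 4179 CPM against 1732 to 5706 CPM in the other 8). Nor did they in mmu-miR-1983 (136 to 220.5 CPM against 114 to 415 CPM) or bta-miR-1246 (22.8 to 268 CPM against 10.3 to 108 CPM). They lay toward the high end in bta-miR-2478 (873 to 1496 CPM against 386 to 1066 CPM). For hsa-miR-7977 the ranges barely overlapped, at 65.4 to 81.8 CPM against 24.3 to 66.2 CPM. The 3 entries with the highest Pearson r with hsa-miR-4454 over the 12 libraries were oar-miR-27a, oar-let-7a and hsa-miR-4792. That r only ranked them and is not given, because the libraries fall into separate sets. Of these oar-miR-27a was at 47189 to 67543 CPM in the 4 libraries and at 30429 to 46585 CPM in the other 8, while the ranges of oar-let-7a and hsa-miR-4792 overlapped. Among 318 other entries with a mean of at least 10 CPM, 1 was higher and 2 were lower in each of the 4 libraries than in all the other 8.

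For the other 5 the most alike entries were named by the same rule, the highest r among entries with a mean of at least 10 CPM. The highest r of all was between mmu-miR-1983 and bta-miR-7857 (r = 0.90, permutation p = 6e-05, adjusted p = 0.0697; Spearman rho = 0.83, permutation p = 0.00118; r = 0.78 without the 2 farthest libraries). Next for mmu-miR-1983 came bta-miR-330 (r = 0.88, adjusted permutation p = 0.105) and bta-miR-92b (r = 0.86, adjusted permutation p = 0.105). All 3 peaked in control 2, where bta-miR-7857 was at 1109 CPM. Within control r was 0.95 to 0.97 for the 3 (exact permutation p = 0.00139 to 0.00833). Within PPHN alone it was 0.47 to 0.63 (exact permutation p = 0.181 to 0.333).

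For hsa-miR-7977 the most alike were bta-miR-449b (r = 0.85), bta-miR-449a (r = 0.78), which share a family, and bta-miR-3613 (r = 0.75), with adjusted permutation p of 0.258 to 0.283. All 3 were lowest in PPHN 11, at 4.04, 39.6 and 4.85 CPM. Without the 2 farthest libraries r was 0.63, 0.62 and 0.58 (permutation p = 0.0443, 0.0545 and 0.0773). For bta-miR-2478 they were bta-miR-669 (r = 0.80), bta-miR-423-3p (r = 0.76) and bta-miR-2284x (r = 0.75). For bta-miR-669 r was 0.81 without the 2 farthest libraries, 0.86 within control and 0.89 within PPHN (exact permutation p = 0.0986). Its Spearman rho over the 12 libraries was only 0.47 (permutation p = 0.127), and the adjusted permutation p of r was 0.283. The other pair was lowest in PPHN 11, and without the 2 farthest libraries r was 0.35 for bta-miR-423-3p and 0.20 for bta-miR-2284x.

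For cgr-miR-1260 the most alike were dre-miR-196c (r = 0.73), bta-miR-197 (r = 0.71) and ssc-miR-664-5p (r = 0.71, adjusted permutation p = 0.329). For dre-miR-196c, listed at 0 in PPHN 9 and at 1.58 CPM in PPHN 7, r was -0.03 within control and 0.77 within PPHN. For bta-miR-197 it was 0.85 and 0.84, and 0.53 without the 2 farthest libraries. The last of the 3, which lies in a small nucleolar RNA, another class of structured RNA, had r = 0.79 within control and 0.78 within PPHN. For bta-miR-1246 they were oar-miR-181a (r = 0.69), mmu-miR-6240 (r = 0.67) and bta-miR-2904 (r = 0.67, adjusted permutation p = 0.342), the last a cow name that matches ribosomal RNA. All 3 peaked in control 6, at 14794, 4910 and 313 CPM, against at most 7798, 928 and 66.8 CPM in the other 11 libraries. Without the 2 libraries farthest from the median of bta-miR-1246, r was 0.06, 0.35 and 0.11.

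Of the 5 entries, hsa-miR-7977 alone had an unadjusted p under 0.05 with the library total (Pearson r = 0.62, permutation p = 0.0307, adjusted p = 0.342; Spearman rho = 0.59, permutation p = 0.0498; n = 12). The unadjusted p was above 0.05 for CPM without TMM (r = 0.48, permutation p = 0.113) and for RLE scaling (r = 0.57, permutation p = 0.0519). With scaling and totals taken without the 6 entries, r was 0.62 (permutation p = 0.0308). The TMM-scaled r was 0.57 without the 2 farthest libraries, 0.84 within PPHN (exact permutation p = 0.0222) and -0.09 within control (exact permutation p = 0.847). Leaving out 1 library at a time, r ran from 0.41 to 0.75, and it was 0.28 without the 3 libraries low in miR-126. The most abundant entry, cgr-miR-1260, had r = -0.16 with the library total over the 12 libraries (permutation p = 0.614), but 0.90 within control (exact permutation p = 0.00694) and -0.41 within PPHN (exact permutation p = 0.451).

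Of 33 other miRNA names linked to tRNA, small nucleolar RNA, vault or Y RNA, or ribosomal RNA, 5 were measured, in 6 entries, none of them from the vault and Y RNA list. In the edgeR test 0 of the 6 passed an adjusted p of 0.05, 0 had an unadjusted p under 0.05, 4 were higher and 2 lower in PPHN, and the median log2 fold change was 0.08. From the tRNA list, bta-miR-4286 averaged 57.0 ± 21.8 CPM over controls against 69.1 ± 31.8 CPM over PPHN libraries, and mmu-miR-5100 averaged 6.40 ± 2.45 against 7.09 ± 4.34 CPM (SD, n = 6). Both were highest in PPHN 11, the library in which bta-miR-2478, hsa-miR-7977 and cgr-miR-1260 were lowest. The small nucleolar RNA names stood at 15.1 ± 7.76 and 12.2 ± 6.85 CPM for ssc-miR-664-5p, 8.57 ± 4.73 and 8.70 ± 4.61 CPM for ssc-miR-664-3p, and 2.53 ± 1.23 and 3.87 ± 3.74 CPM for bta-miR-6516. The ribosomal name bta-miR-2904 averaged 76.1 ± 117 CPM over controls against 29.9 ± 18.5 CPM over PPHN libraries (log2 fold change -1.35, SE 0.81; edgeR adjusted p = 0.579).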

How the data were processed

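The authors deposited raw counts per miRNA entry for 12 libraries. Per the submitters' processing notes, the tools included Bowtie 1.1.1 and Trim Galore 0.2.5. Settings, miRNA reference and genome build: not given in the sources used here. The table holds 470 entries, 149 of which join several names. Some separate entries had nearly equal counts: in control 1, oar-miR-22-3p had 275043 and bta-miR-3600 had 272969. Whether the same reads were counted in both was not tested, so library totals and shares may hold reads more than once. How fragments of tRNA or snRNA came to be counted depends on the unknown mapping. The deposited p-values, q-values and log2 fold changes are those of the authors, from DESeq, DESeq2 and edgeR per the file headers.

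From the counts, PPHN was tested against control with edgeR 4.0.16 in R 4.3.3 (robust quasi-likelihood test) with TMM scaling, on the 468 entries that passed filterByExpr. P-values were adjusted by Benjamini-Hochberg over all tested entries (threshold 0.05). Levels are CPM; correlations used log2 CPM with a prior count of 2 and 100000 resamples (all 720 or 40320 arrangements for 6 or 8 libraries), adjusted over 2325 relations. Libraries were called separate sets at a gap of over 2 log2 units, a rule chosen after the values were seen. Floors of 3 counts lie between 0.169 and 1.33 CPM before scaling. Alternatives were RLE and upper-quartile scaling, scaling without the 6 entries, DESeq2 1.42.0, limma-voom (limma 3.58.1), other filters, a prior count of 0.5 and leaving out libraries. The code was tested on simulated data.

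The members and lists were chosen with earlier results of these data known. Named entries are the 6 members, the 3 entries with the highest r with each (for hsa-miR-4454 used only to rank them), and the measured entries of the 4 lists of structured RNA names (9 tRNA, 10 small nucleolar RNA, 3 vault and Y RNA and 11 ribosomal RNA names).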

Additional observations from a re-analysis of the deposited data

Results flagged for a closer look

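In 6 of 24 groups of 6 libraries (6 members and 6 related entries, 2 groups each), 1 library stood farther from the rest in CPM than Dixon's test allows. Chance gives about 5% of groups for normally distributed values, which skewed CPM are not, so the 2 shares cannot be compared. On the log2 scale, a check added after seeing the data, 3 of the 6 remained: bta-miR-4286 and mmu-miR-5100 in PPHN 11 and bta-miR-2904 in PPHN 8. The gap was then 0.48 of the range for bta-miR-1246, 0.47 for bta-miR-2904 in control 6 and 0.20 for hsa-miR-4454, all under the critical value. Control 6 stood out for bta-miR-1246 (268 CPM, other controls 10.3 to 56.4) and for bta-miR-2904 (313 CPM, other controls 9.46 to 61.2). Control 3 stood out for hsa-miR-4454 (683 CPM, other controls 4.47 to 253). PPHN 11 stood out for bta-miR-4286 (132 CPM, other PPHN libraries 49.4 to 69.1) and mmu-miR-5100 (15.8 CPM, others 4.15 to 6.41), and PPHN 8 for bta-miR-2904 (66.8 CPM, others 16.6 to 27.2).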

How the results depend on the processing

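None of the 6 entries passed the adjusted threshold in any alternative fit (120 fold changes over the 6 entries, lowest adjusted p 0.642). The sign of 5 of the 6 fold changes was not stable. With limma-voom the log2 fold change was 0.0060 for bta-miR-1246 and 1.02 for hsa-miR-4454. With a filter of 10 CPM in 6 libraries it was 0.029 for hsa-miR-7977. Without control 2, PPHN 8 and PPHN 11 together it was 0.079 for mmu-miR-1983 and 0.098 for hsa-miR-7977. Leaving out 1 library at a time, it ran from -0.91 to 0.70 for bta-miR-1246 (highest without control 6), -0.11 to 0.26 for bta-miR-2478 (lowest without PPHN 9), -1.17 to 0.95 for hsa-miR-4454 (highest without control 3), -0.28 to 0.10 for mmu-miR-1983 (highest without control 2) and -0.22 to 0.065 for hsa-miR-7977 (above 0 without PPHN 11, and 0.034 without control 6). For cgr-miR-1260 it stayed negative, from -0.41 to -0.09. The cause of these turns was not tested. Over all entries, DESeq2 called 12 and edgeR 0, with 0 to 1 when a library was left out (1 without PPHN 8). The correlation of hsa-miR-7977 with the library total was -0.095 within control. In all 21 alternatives 0 of the 10 pairs passed. The runs within control and within PPHN had only 720 arrangements each, so a pass after adjustment over all relations was hardly possible there. The summed level moved by less than its SD in every alternative run. No paired analysis was possible because the groups share no replicate numbers.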
